A study of Arabidopsis thaliana with 4 samples.

Results

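The chloroplast genome of Arabidopsis thaliana carries 6 genes for subunits of the chloroplast ATP synthase, namely atpI, atpH, atpF, atpA, atpB and atpE. They were taken as the probe sets that the platform annotation assigns to these symbols, a rule that uses annotation and no measured value. Each had 1 probe set. They were 6 of the 69 chloroplast-encoded genes and 6 of the 13355 genes with a named probe set. In the RefSeq annotation of assembly TAIR10.1, used for names and gene order only, they lie in 2 clusters. The order of protein-coding genes on the array was psbI, atpA, atpF, atpH, atpI, rps2 around the larger cluster, called atpI-H-F-A after its direction of transcription, and ndhC, atpE, atpB, rbcL around the other, called atpB-E.

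All RNA came from 7-d-old wild-type (WT ler) seedlings under low light and was measured on Affymetrix ATH1 arrays, with 1 array in each of 4 groups. The groups were large-polysome mRNA from seedlings kept for 12 h in hypoxia, large-polysome mRNA from non-stressed seedlings (control), total RNA from seedlings after 12 h of hypoxia, and total RNA from non-stressed seedlings. Large polysomes are mRNAs loaded with many ribosomes. The large-polysome control is labelled with 12 h of low light, whereas no time is stated for the control array of total RNA. A difference in sampling time may therefore enter every ratio that uses the total RNA control. The labels do not say how oxygen was withdrawn, how the polysomes were isolated, or how RNA was primed for labelling.

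The chloroplast ATP synthase makes ATP from the proton gradient that photosynthetic electron transport builds across the thylakoid membrane. A ring of atpH products (subunit c) turns in the membrane beside the atpI product (subunit a), which forms the proton channel. The atpF product (subunit b) is part of the peripheral stalk. The atpA and atpB products (alpha and beta) form the catalytic head, and the atpE product (epsilon) is part of the central stalk. Plastid genes are transcribed largely as multi-gene RNAs that are then cut and trimmed, and they are translated by ribosomes of the bacterial type inside the chloroplast. The remaining subunits are encoded in the nucleus and imported.

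The values were probe set intensities, scaled to a common mean on every array, so each describes a gene against the mean of its own array. An intensity of 139 served as the floor below which a value was not used as a level, and all 6 genes were above it on all 4 arrays. Because probe sets differ in brightness for the same amount of RNA, levels were compared between arrays for 1 gene, never between genes. With 1 array per group no difference has a replicate check and no p-value was computed. A difference of 2-fold, a log2 ratio of 1 or more in size, served to count genes. As a guide to probe error, genes represented by 2 probe sets were used. Their log2 ratios lay apart by a median of 0.29 to 0.49 in the 5 comparisons, over 30 genes with both above the floor. In whole seedlings, fewer cells of a type and less RNA per cell cannot be told apart. Of the shoot markers 3 of 6 had a named probe set, and their summed intensity was 17929 and 16229 in large-polysome RNA of hypoxic and control seedlings, and 19160 and 20842 in total RNA. The 3 of 4 root markers summed to 14519 and 13410 in large-polysome RNA of hypoxic and control seedlings, and to 14516 and 20411 in total RNA. Most of each sum was PYK10, with log2 hypoxia ratios of -0.44 in total and 0.16 in large-polysome RNA. The other markers were lower in hypoxia in both, EXPA18 by -1.82 and -1.15. For EXPA7, under the floor in hypoxia, the ratios of -1.29 and -0.22 are bounds. The pollen gene AT59, the 1 of 4 floral and pollen markers with a named probe set, was at or under 14.8 on every array.

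Within the atpI-H-F-A cluster, atpF and atpA were lower in hypoxia in total RNA and higher in hypoxia in large-polysome RNA, atpH was higher in large-polysome RNA, and atpI ran the opposite way from atpF and atpA. In large-polysome RNA, however, the log2 ratio of atpI was only -0.44 and that of atpA 1.26, both within the 95th percentile of probe error, 1.30. The genes of the atpB-E cluster moved by less than 2-fold in every comparison and stayed close to each other.

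The 3 membrane subunits of the larger cluster behaved differently from one another. The intensity of atpI was 243 in hypoxic and 331 in control large-polysome RNA, and 717 in hypoxic and 161 in control total RNA. Its highest array was thus hypoxic total RNA, and its lowest was control total RNA, at only 1.16 times the floor. The c-ring gene atpH had 3451 in hypoxic and 773 in control large-polysome RNA, and 3933 in hypoxic and 4377 in control total RNA. Here 3 arrays were alike and the large-polysome control stood below them. The stalk gene atpF had 3593 in hypoxic and 773 in control large-polysome RNA, and 1321 in hypoxic and 4111 in control total RNA. The head gene atpA had 12058 in hypoxic and 5046 in control large-polysome RNA, and 4805 in hypoxic and 12152 in control total RNA. For both atpF and atpA the high arrays were hypoxic large-polysome RNA and control total RNA.

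In the other cluster, the beta gene atpB had 19876 in hypoxic and 14511 in control large-polysome RNA, and 15833 in hypoxic and 20114 in control total RNA. The epsilon gene atpE had 15514 in hypoxic and 11923 in control large-polysome RNA, and 13092 in hypoxic and 17013 in control total RNA. Here too the higher arrays were hypoxic large-polysome and control total RNA, with smaller differences between arrays than for atpA. The highest array was 1.39 times the lowest for atpB and 1.43 times for atpE, against 2.53 for atpA, 4.46 for atpI, 5.31 for atpF and 5.67 for atpH.

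**Figure D1:**
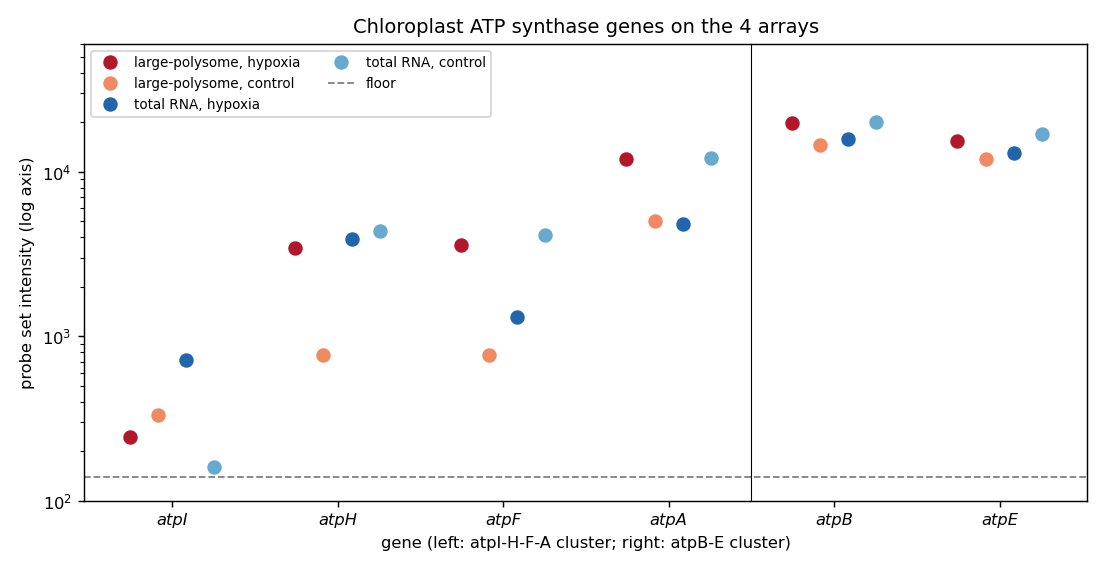
Probe set intensity (log axis) of each chloroplast ATP synthase gene on the 4 arrays, 1 point per array; the dashed line is the floor of 139. The points of atpB and atpE lie close together, those of atpF and atpH reach down to 773 in control large-polysome RNA, and atpI has its highest point, 717, in hypoxic total RNA.

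Hypoxia over control in total RNA asks how the steady-state transcripts changed under low oxygen. The log2 ratio was -1.64 for atpF, a 3.11-fold lower signal, and -1.34 for atpA, 2.53-fold lower. For atpI it was 2.16, or 4.46-fold higher. Thus 2 of 6 genes were at least 2-fold lower, against 8.72% of all measured genes, and 1 of 6 was at least 2-fold higher, against 5.42%. Of the other 63 chloroplast-encoded genes, 2 were at least 2-fold lower and 10 at least 2-fold higher. The log2 ratios of atpB and atpE were -0.35 and -0.38. That of atpH was -0.15, but 0.15 with the arrays scaled on the spiked controls and 0.02 with scaling on the other chloroplast genes. The median was -0.75 for the atpI-H-F-A cluster and -0.36 for the atpB-E cluster, beside -0.24 for the other 63 chloroplast-encoded genes and -0.06 for all genes. The 95th percentile of probe error in this comparison was 0.94, and the ratios of atpI, atpF and atpA exceed it in size.

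In large-polysome RNA, where the same question is put to the transcripts carrying many ribosomes, hypoxia gave a different order. The log2 ratio was 2.22 for atpF, 4.65-fold higher, 2.16 for atpH, 4.47-fold higher, and 1.26 for atpA, 2.39-fold higher. These 3 of 6 genes were at least 2-fold higher, against 8.07% of all measured genes, and none was at least 2-fold lower, against 10.0%. Among the other 63 chloroplast-encoded genes, 16 passed 2-fold upward and 6 downward. Both atpF and atpH had a higher ratio than any of these 63. The ratio of atpI was -0.44. Those of atpB and atpE were 0.45 and 0.38, which became -0.07 and -0.15 with scaling on the other chloroplast genes, whose own median was 0.53. The cluster medians were 1.71 for atpI-H-F-A and 0.42 for atpB-E, and the median of all genes was -0.07. The 95th percentile of probe error here was 1.30, so the ratios of atpF and atpH lie beyond it and those of atpA and atpI do not. With scaling on the other chloroplast genes the ratio of atpA was 0.73, under 2-fold.

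All 6 genes therefore had hypoxia ratios of opposite sign in the 2 fractions, which share no array. Among all named genes above the floor on every array, 22.8% had opposite signs, and among the other chloroplast-encoded genes 43 of 60 did. For atpA, atpF, atpH, atpB and atpE the ratio was below 0 in total RNA and above 0 in large-polysome RNA, as in 34 of those 60 genes, except that atpH, atpB and atpE change sign in 1 fraction under the scalings just named. For atpI the ratio was above 0 in total RNA and below 0 in large-polysome RNA, as in 9 of those 60. Both atpF and atpA were past 2-fold in opposite directions with the arrays scaled to a common mean, as were 6 of the other 60 chloroplast genes and 9 of 5847 genes in all.

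**Figure D2:**
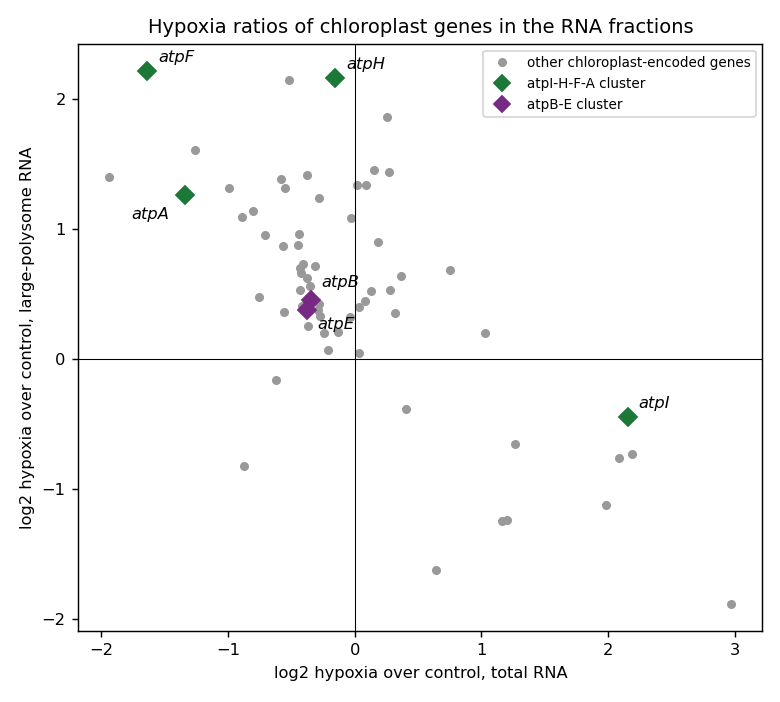
log2 ratio of hypoxia over control in total RNA (x axis) and in large-polysome RNA (y axis) for the chloroplast-encoded genes above the floor on all arrays, 1 point per gene. Diamonds mark the ATP synthase genes: 5 lie in the upper left part of the plane and atpI, at 2.16 and -0.44, lies in the lower right.

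The ratio of large-polysome to total RNA describes how strongly a transcript is represented on large polysomes, set against the average transcript. In hypoxia it was 1.44 (log2) for atpF and 1.33 for atpA, while atpI stood at -1.56 and atpH at -0.19. Past 2-fold toward large polysomes were 2 of 6 genes, against 1.06% of all measured genes, and past 2-fold the other way was 1 of 6, against 1.06%. For the other 63 chloroplast-encoded genes these counts were 8 and 9. The ratios of atpB and atpE were 0.33 and 0.24, and became -0.11 and -0.19 with scaling on the other chloroplast genes. The cluster medians were 0.57 for atpI-H-F-A and 0.29 for atpB-E, beside 0.21 for the other chloroplast genes. Scaling on the other chloroplast genes gave atpA a ratio of 0.89, under 2-fold.

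In control seedlings the same ratio was -2.50 for atpH, a 5.67-fold lower signal in large-polysome than in total RNA, -2.41 for atpF, 5.31-fold lower, and -1.27 for atpA, 2.41-fold lower. The ratio of atpI was 1.04, or 2.06-fold higher. Hence 3 of 6 genes were at least 2-fold lower, against 2.77% of all measured genes, and 1 of 6 was at least 2-fold higher, against 2.08%. For the other 63 chloroplast-encoded genes these counts were 10 and 8. Among the other 63 chloroplast-encoded genes, 2 had a lower ratio than atpH and 2 a lower one than atpF. The ratios of atpB and atpE were -0.47 and -0.51, but 0.20 and 0.16 when the arrays were scaled on the spiked controls, a scaling that raised the median of all genes by 0.62. Cluster medians were -1.84 for atpI-H-F-A and -0.49 for atpB-E, with -0.37 for the other chloroplast genes. Scaled on the spiked controls, atpA stood at -0.60, under 2-fold. The 95th percentile of probe error was 1.58, below the size of the ratios of atpH and atpF and above those of atpA and atpI.

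**Figure D3:**
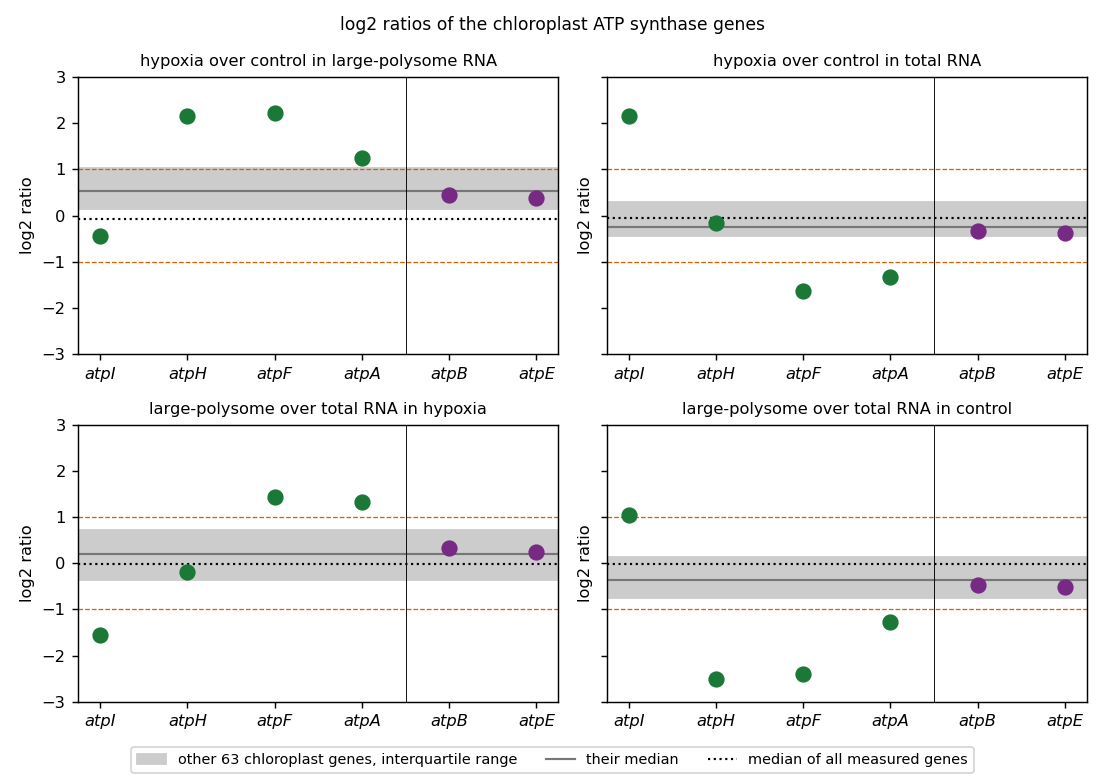
log2 ratios of the 6 genes in 4 comparisons, 1 point per gene, with the atpI-H-F-A cluster in green and the atpB-E cluster in purple. The grey band is the interquartile range of the other 63 chloroplast-encoded genes, the grey line their median, the dotted line the median of all measured genes, and the dashed lines mark 2-fold; atpB and atpE lie inside the band in all 4 panels.

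The change of association is the log2 ratio of large-polysome to total RNA in hypoxia minus the same in control. It was 3.85 for atpF, the highest of the 66 chloroplast-encoded genes for which it could be computed. For atpA it was 2.60 and for atpH 2.31, and 3 of the other 60 genes were above each of them. For atpI it was -2.60, with 4 of the other 60 genes lower. At least 2-fold higher were 3 of 6 genes, against 3.03% of all genes above the floor on every array, and at least 2-fold lower was 1 of 6, against 1.90%. Among the other 60 chloroplast-encoded genes, 25 passed 2-fold upward and 8 downward, so changes of this size were common in the chloroplast genome. The genes atpB and atpE stood at 0.80 and 0.76, near the median of 0.79 of the other chloroplast-encoded genes. The median of all genes was -0.01. The sizes for the 4 genes of the larger cluster exceed the 95th percentile of probe error, 1.02, and those of atpB and atpE do not.

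The clusters differed in how far their genes moved and in how alike their genes were. The median of the atpI-H-F-A cluster minus that of the atpB-E cluster was -0.38 in total RNA under hypoxia, 1.29 in large-polysome RNA under hypoxia, 0.28 for large-polysome over total RNA in hypoxia and -1.35 in control, and 1.68 for the change of association. With 1 array per group, and with genes of a cluster sharing transcripts, these differences were not tested. The log2 ratios of atpB and atpE differed by 0.03 to 0.08 in the 5 comparisons. Both had bright probe sets, with lowest intensities of 14511 and 11923. The other chloroplast genes with at least 10828 on every array, psbM, rps4, petB and ndhI, also stayed under 2-fold in every comparison. Their changes of association were 0.01, 0.37, 0.37 and 0.60. The part of signal strength in the difference between the clusters was not tested. Along the larger cluster the step in the change of association was -4.03 from rps2, a ribosomal protein gene often transcribed with the cluster, to atpI, and 4.91 from atpI to atpH. It was 1.54 from atpH to atpF and -1.26 from atpF to atpA. For comparison, neighbouring chloroplast genes differed by a median of 0.86 over 62 pairs in the change of association, and all pairs of chloroplast genes by a median of 1.15.

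Around the larger cluster, rps2 itself had a change of association of 1.43, with log2 hypoxia ratios of -0.56 in total and 0.87 in large-polysome RNA. The next gene, rpoC2, which encodes a subunit of the plastid RNA polymerase, had 2.87, with -1.26 and 1.61. In the change of association the direction of atpH, atpF and atpA was thus also that of rps2 and rpoC2 on the far side of atpI, and atpI stood against all of them. This direction was not particular to the neighbours, because 49 of the other 60 chloroplast-encoded genes had a change above 0 and 11 below. Beside the smaller cluster, ndhC, for a subunit of the NDH complex, had a change of 0.35, and rbcL, the large subunit of Rubisco, had 1.24.

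**Figure D4:**
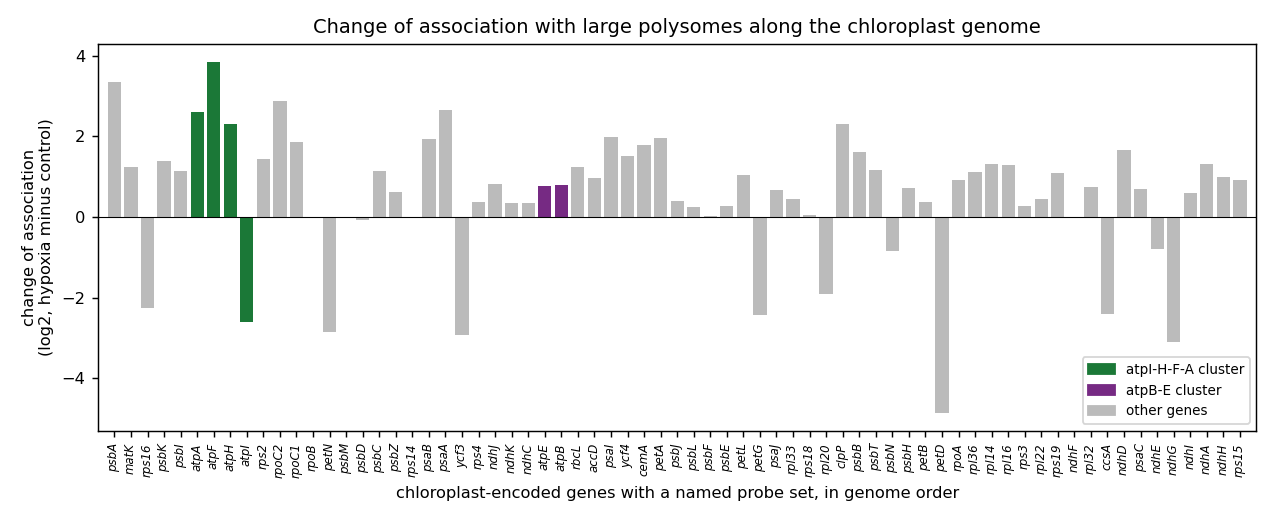
Change of association (log2, hypoxia minus control) for the chloroplast-encoded genes in genome order, 1 bar per gene; genes without a bar (rpoB, rps14 and ndhF) were below the floor on an array. The bars of atpA, atpF and atpH point up between 2.31 and 3.85, that of atpI points down to -2.60, and those of atpE and atpB are 0.76 and 0.80.

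The signal of atpI was low, and low signal went with direction among chloroplast genes. Only chloroplast-encoded genes above the floor on all arrays were used, which left out rpoB, rps14 and ndhF, with total RNA ratios of at least 2.26, 3.02 and 0.72. Of the 14 such genes with a geometric mean intensity under 1000, atpI among them, 9 were higher in hypoxic than in control total RNA. Of these, 7 were at least 2-fold higher, and the median log2 ratio of the 14 was 0.84. Of the 52 brighter ones, 16 were higher and 2 at least 2-fold, with a median of -0.33. The limit of 1000 was chosen after the values were seen, and the part of signal strength in the ratio of atpI was not tested. Across the 66 genes the Spearman rho between mean log2 intensity and the log2 ratio in total RNA was -0.28 and Pearson r was -0.41. The points share the arrays and the intensities enter both measures. With the floor raised to the 60th percentile, atpI was below it on 2 arrays, hypoxic large-polysome and control total RNA, so its log2 ratio in total RNA became a bound of 1.12. The ratios of -0.44 in large-polysome RNA and 1.04 for large-polysome over total RNA in control became bounds of -0.01 and 0.01.

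Likeness of pattern was measured as the distance between gene-centred log2 values on the 4 arrays, over 5841 other genes above the floor on all arrays. Nearest to the mean of the atpI-H-F-A cluster were the beta-glucosidase gene BGLU46, AT5G37130, the chloroplast genes ycf4 and cemA, and AT5G49710, at distances of 0.18 to 0.22. The mean blends the opposed patterns of atpI and the other 3 genes, which were themselves 2.69 to 3.28 from atpI. Nearest to the atpB-E cluster were AT2G44380, AT1G20823, AT1G27210, ATO and the chloroplast NDH gene ndhI, at 0.05 to 0.10. The distance between atpB and atpE was 0.08.

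Single genes of the larger cluster were also compared, a step chosen after the values were seen. The closest to atpI were 3 chloroplast genes, petN at 0.23, ycf3 at 0.28 and ndhG at 0.56. The small cytochrome b6f subunit gene petN had hypoxia ratios of 2.09 in total and -0.76 in large-polysome RNA. The photosystem I assembly gene ycf3 had 2.19 and -0.73. The closest to atpH were the photosystem core genes psaA at 0.26 and psbB at 0.36, with change-of-association values of 2.66 and 1.60. The closest to atpA was clpP, for a protease subunit, at 0.28, with a change of association of 2.31. For atpF even the closest gene, again clpP, was 0.87 away, while atpF and atpA were 0.88 apart.

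Other chloroplast-encoded groups also held genes of either direction. Of the 4 RNA polymerase genes, 3 had a hypoxia ratio below 0 in total RNA and 3 above 0 in large-polysome RNA, with medians of -0.45 and 0.94, and the 3 with a change of association had a median of 1.86. All 20 photosystem genes had a ratio above 0 in large-polysome RNA under hypoxia, with a median of 0.69, while 10 were below 0 in total RNA, and their median change of association was 0.71. The 6 cytochrome b6f genes had 2 at least 2-fold up and 3 at least 2-fold down in the change of association, with a median of -1.03, where the atpI-H-F-A cluster had 3 up and 1 down. None of these differences between groups was tested.

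The nuclear genes of the same complex that were above the floor on all arrays showed little of this. Of the 4 nuclear subunit genes written down, ATPC1 and ATPC2, both for the gamma subunit, had a named probe set. ATPC1, the main form in leaves, had 6079 in hypoxic and 8054 in control large-polysome RNA, and 6068 in hypoxic and 7079 in control total RNA. Its change of association was -0.18, against 2.31 to 3.85 for atpH, atpA and atpF. ATPC2, a form with low expression, had 392 in hypoxic and 302 in control large-polysome RNA, and 424 in hypoxic and 203 in control total RNA. Its log2 ratio in total RNA was 1.06, just past 2-fold, and its change of association was -0.68. Of 9 nuclear genes written down as assembly or RNA factors of the complex, 6 had a named probe set. None of the 5 measured in total RNA and none of the 6 measured in large-polysome RNA was past 2-fold in hypoxia, with medians of -0.16 and -0.15. In hypoxic large-polysome RNA AT4G30825, AT2G18940 and AT3G22150 were under the floor, so their ratios of -0.22, -0.58 and -0.07, and the median, are bounds. The ratios of AT2G18940 and AT3G22150 in total RNA, -0.29 and -0.40, are bounds too. With control intensities under 2 times the floor, these genes could not be counted as 2-fold lower. AT4G30825 was above the floor on 1 array only, control large-polysome RNA, with an intensity of 163. Of 8 genes for plastid RNA polymerases and sigma factors, 1 had a named probe set and it was below the floor on every array. None of the 6 mitochondrion-encoded ATP synthase genes had a probe set with 1 gene name.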

How the data were processed

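Total and large-polysome RNA of control and hypoxic seedlings was measured on 4 arrays, 1 per group, with groups taken from the sample titles. The authors deposited 1 linear intensity per array for 22810 probe sets. How the authors summarised the probes is not given in the sources used here. For the deposited arrays the mean between the 2nd and 98th percentiles was about 499 to 500. Per the file headers, the array of hypoxic total RNA was scanned 2 times and the others 1 time. Of 22746 non-control probe sets, 13513 had 1 gene name in the platform annotation, and 13436 of these matched RefSeq. A gene took its brightest probe set.

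Intensities were rescaled to a common trimmed mean. As the floor, the 40th percentile was taken on each array and the highest of these values used. Values under it were set to it before log2, a gene under it on both sides had no ratio, and the change of association needed all 4 arrays. Ratios were computed with Python 3.11.15, numpy 2.4.6 and pandas 2.3.3 and tested on simulated data. The number of arrays limits the precision. The named genes were the 6 members, the listed genes and the 5 genes nearest in pattern to each cluster. The rule for the members reads the annotation only, but these genes and the lists were chosen for study with earlier results of these data known. As alternatives, 3 treatments of low values, 4 scalings and the mean of a gene's probe sets were run.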

Additional observations from a re-analysis of the deposited data

Results flagged for a closer look

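All 6 genes had hypoxia ratios of opposite sign in large-polysome and total RNA. The difference between the fractions, large-polysome minus total on the log2 scale, was 3.85 for atpF, 2.60 for atpA, 2.31 for atpH, 0.80 for atpB, 0.76 for atpE and -2.60 for atpI. It is by definition the same quantity as the change of association given above, and no further result. With 1 array in each group this difference was not tested.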

How the results depend on the processing

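Each of the 10 cluster medians and 5 member counts was recomputed under 8 alternatives. Of the 80 recomputed medians 10 moved by more than the median probe error and no median past 2-fold changed direction. Among 238 values of single genes 8 changed sign, those of atpH, atpB and atpE named above, all under 2-fold. With scaling on the spiked controls, the atpI-H-F-A and atpB-E medians became -0.443 and -0.0583 in total RNA under hypoxia, -1.17 and 0.18 for the fraction ratio in control, and 1.93 (3 genes, without atpI) and 0.11 for the change of association. That scaling shifted the median of all genes by 0.28, 0.62 and -0.65, and relative to it the medians were -0.67 and -0.28, -1.76 and -0.41, and 2.59 and 0.78. With scaling on the other chloroplast genes, the medians became 1.18 and -0.11 in large-polysome RNA under hypoxia and 1.75 and 0.0753 for the change of association, with shifts of -0.44 and -0.69 over all genes. Relative to all genes they were 1.69 and 0.40, and 2.45 and 0.77. The count of members past 2-fold stayed at 3 in total RNA under hypoxia, lay at 2 or 3 in large-polysome RNA under hypoxia and for large-polysome over total RNA in hypoxia, and at 3 or 4 in the other comparisons. Over all genes the counts past 2-fold, from 588 to 2287 against 1080, 792 to 2481 against 1325, 95 to 1069 against 150, 201 to 1537 against 364 and 145 to 1925 against 288 in the same order of comparisons as in the report, depended on the floor and the scaling. No paired analysis was possible because each group has 1 array, and for the same reason no array could be left out.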
